A study of Mus musculus with 10 samples.

Results

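Hormone secretion by pituitary cells is electrically driven, and the genes described here encode the pores and accessory subunits of the channels that carry that activity. The set held every gene whose symbol starts with Kcn (potassium channels), Cacn (voltage-gated calcium channels) or Scn and a digit (sodium channels) and that had at least 20 UMIs over the kept barcodes of all 10 libraries. A UMI is a molecular tag that counts 1 captured RNA molecule. Of 139 such genes, 108 reached the minimum (71 Kcn, 24 Cacn and 13 Scn genes), out of 20823 gene symbols with at least 20 UMIs and 38962 with at least 1. The member nearest the minimum was Kcne4 with 20 UMIs, and the closest gene below it had 19. The 108 genes held 66958 UMIs, of which 23663 (35.3%) were Kcnq1ot1, a long nuclear RNA transcribed antisense to Kcnq1 that encodes no channel.

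The study profiled single cells of the adult pituitary of CD1 mice. At 8 weeks there were 3 WT female and 3 WT male libraries, 1 of each sex from the 10X Genomics platform and 2 of each from Drop-seq, and 1 Drop-seq library of mt/hGRF females, in which a metallothionein promoter drives human growth hormone releasing factor. At 13 weeks there was 1 Drop-seq library of a virgin WT female and 2 of lactating WT females. Each WT 8-week Drop-seq library pooled 2 mice, and lactating replicate 1 came from a single mouse and replicate 2 from a pair, so libraries are not all single animals. In the comparison of classes the library was a block, so p-values measure how the class differences vary between libraries. In the comparisons of sex, lactation and transgene they measure the spread between libraries.

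Potassium channels pull the membrane back to rest after a spike and set how long it stays quiet, whereas voltage-gated sodium and calcium channels depolarise it. Pituitary endocrine cells fire calcium-dependent spikes on their own, and calcium that enters through these channels feeds secretion. Hypothalamic peptides and dopamine speed up or silence the firing, in part through G protein-gated potassium channels.

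After the cell filters, 23432 barcodes remained, with a median of 534 to 1246 UMIs per barcode and library. Classes were set by lists of marker genes that hold no channel gene and no hormone gene, and 9 classes with at least 20 gated barcodes in 4 or more libraries were tested. Libraries shared at most 6 barcodes. The lactotrope, somatotrope and gonadotrope lists lean on the marker table that the study made from these samples. Hormone genes took no part in the gates. Median Gh was 2093.2 UMIs per 10000 in somatotrope-gated barcodes and at most 938.5 in the other tested classes, median Pomc was highest in melanotrope-gated ones (1362.8), and median Cga was highest in gonadotrope-gated ones (85.2). Median Prl was 678.5 in lactotrope-gated barcodes but 744.7 in the gate built on collagen and other stromal genes. That gate was led by Col1a2, with 72.5% of its marker UMIs, and only 238 of its 2049 barcodes carried 2 different markers, while Gh (median 938.5 per 10000) was near that of barcodes in no gate (1091.0). It is called the Col1a2-led gate here and given no cell type. The 10X Genomics libraries stood apart. Barcodes over 5000 UMIs were 111 of 1726 and 183 of 1767 and held 42.7% and 62.0% of the UMIs, against 3.65% to 15.6% in the Drop-seq libraries. Those large 10X Genomics barcodes carried 5.63 and 4.25 channel UMIs per 10000, and the others 35.6 and 37.8.

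Among the 9 tested classes, the mean level of channel RNA was highest in the 4 endocrine classes and lowest in macrophages and red blood cells. Levels are UMIs per 10000, with the hormone genes left out of the total. The summed level of the 108 genes was 56.5 ± 13.8 in gonadotropes (SD over 9 libraries), 45.0 ± 7.35 in melanotropes (10), 41.5 ± 8.65 in somatotropes (10) and 40.5 ± 10.2 in lactotropes (9). These 4 endocrine classes overlapped each other. The Col1a2-led gate held 35.2 ± 11.1 (10) and the class gated on Sox2 and other stem and supporting cell genes 24.9 ± 6.60 (10). Marker UMIs of the latter were led by Mia (59.3%) and Rbpms (19.4%), with Sox2 at 6.51%. It is called the Sox2 class here after its marker list only. Macrophages held 7.59 ± 1.70 (10), between 5.42 and 11.2, below every library of the 4 endocrine classes, whose lowest value was 30.9. Red blood cells, which should hold little channel RNA, gave 5.48 ± 3.10 (6). Median Gh in these barcodes was 424.7 per 10000. The study took hormone RNA in blood cells to be most likely free RNA and corrected for it. No such correction was made here, and the part of free RNA in the low channel levels was not tested. Without Kcnq1ot1 the order of the 4 endocrine classes, from gonadotropes at 35.5 ± 6.24 to lactotropes at 25.02 ± 6.37, was the same. The gate built on corticotrope markers was not tested. Its marker UMIs were led by Tnnt1 (32.6%) and Tnni3 (23.3%). Median Pomc, the hormone gene of corticotropes, was 314.9 per 10000 over its 2 libraries with at least 20 barcodes. That was near the median of all kept barcodes (310.3), so the name is that of the marker list only. The 156 barcodes of this gate held 7.17 per 10000 (95% exact Poisson interval 6.66 to 7.71, counting error only) over all libraries. Single libraries ran from 1.93 to 37.6, lowest in both 10X Genomics libraries. The male 10X Genomics library gave 690600 of the 1017709 UMIs, and 32 of its 38 barcodes in this gate were over 5000 UMIs. Without it the level was 18.3. The median of the nuclear RNAs Malat1, Meg3 and Neat1 together was 1198 per 10000 in gonadotropes, 1775 in melanotropes, 911 in somatotropes, 1584 in lactotropes and 1333 in the Col1a2-led gate, against 764 in the Sox2 class, 283 in macrophages, 162 in red blood cells and 116 in the class gated on mitotic genes. It was lower in the last 4 classes but did not follow the order of the endocrine classes. The part of nuclear RNA in the class differences was not tested.

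**Figure D1:**
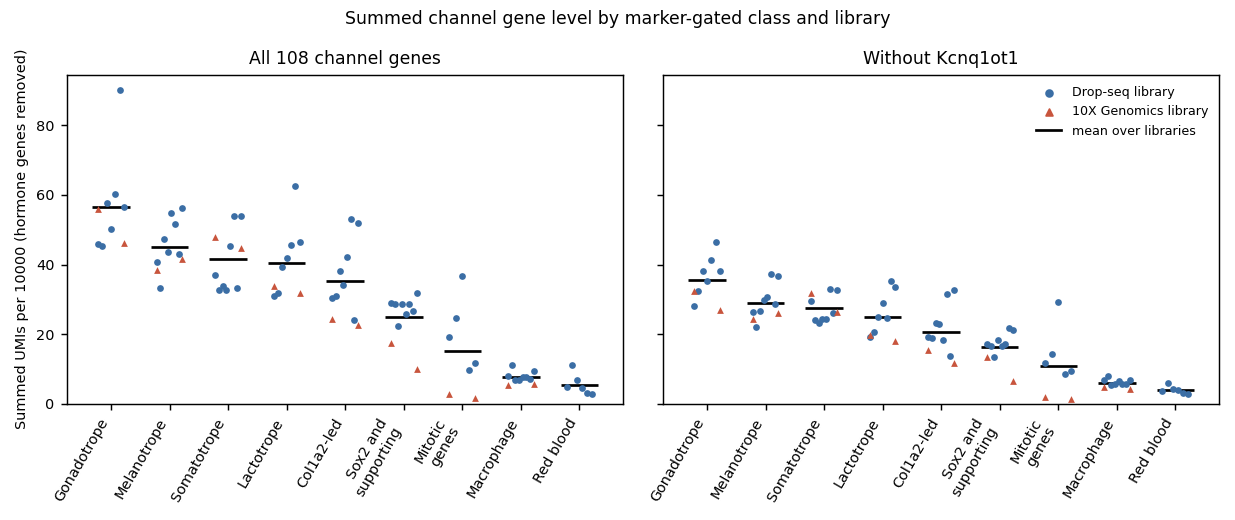
Summed level of the 108 channel genes (left) and of the same genes without Kcnq1ot1 (right), in UMIs per 10000 with hormone genes removed, for 9 marker-gated classes. Each point is 1 library (circle Drop-seq, triangle 10X Genomics) and the bar is the mean over libraries. Gonadotropes have the highest mean (56.5) and macrophages (7.59) and red blood cells (5.48) the lowest, and the 10X Genomics libraries of the class with mitotic genes lie at 1.76 and 2.68, below all 5 Drop-seq libraries.

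Each class was then set against the mean of the other 8 in 1 edgeR fit over 13245 genes, with the library as a block. Of the 108 channel genes 60 could be tested. The other 48 had 20 to 139 UMIs and were too sparse. In melanotropes 30 of the 60 were higher at an adjusted p under 0.05, where 13.3% of all genes tested were higher, and 1 was lower (7.94% of all genes). In gonadotropes 20 were higher and 0 lower (8.95% and 3.04% of all genes), in somatotropes 19 and 0 (10.2% and 4.61%) and in lactotropes 16 and 0 (9.04% and 5.01%). The median log2 fold change of the tested members was 0.88 in melanotropes, 0.69 in gonadotropes, 0.48 in somatotropes and 0.38 in lactotropes, while the median of all genes lay between -0.16 and 0.13 over the 9 classes. Macrophages went the other way, with 8 members higher and 34 lower (29% and 21.8% of all genes) and a median of -1.87. Of the 115 calls of a higher level, 14 concern a member that passed the filter on low counts only through the libraries of that class and so had to differ. Among them are Cacna1f, Kcnc4 and Kcnk3 in gonadotropes, Kcnj9, Kcnk13 and Kcnk6 in macrophages, Kcnab3, Kcnip2, Kcnj9 and Scn3b in melanotropes, Cacna1h in somatotropes, Cacna1i in red blood cells and Scn7a in the Col1a2-led gate, and the fold changes of these are descriptions. Without the 14, 25 members were higher in melanotropes, 17 in gonadotropes, 18 in somatotropes and 16 in lactotropes. The shares of all genes given here were not cut in the same way. The medians above and the 170 calls below include the 14. Each class is part of the mean that the others are set against, so these 9 contrasts are not independent. Of the 60, 49 were higher in at least 1 of the 4 endocrine classes: 22 in 1 of them, 19 in 2, 7 in 3 and 1 in all 4. These are 81.7% of the tested members, or 70% (42) without the calls fixed by the filter, and 27.4% of all genes were higher in at least 1 of the 4. Of the 170 calls, 135 held with DESeq2, 120 in the Drop-seq libraries alone, 73 in the 10X Genomics libraries alone and 135 without barcodes over 5000 UMIs. Calls that could not be tested in a setting, as for some in the 10X Genomics libraries alone, were counted as not held. For single genes a loss in the 10X Genomics libraries alone is given only beside a loss in another setting.

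**Figure D2:**
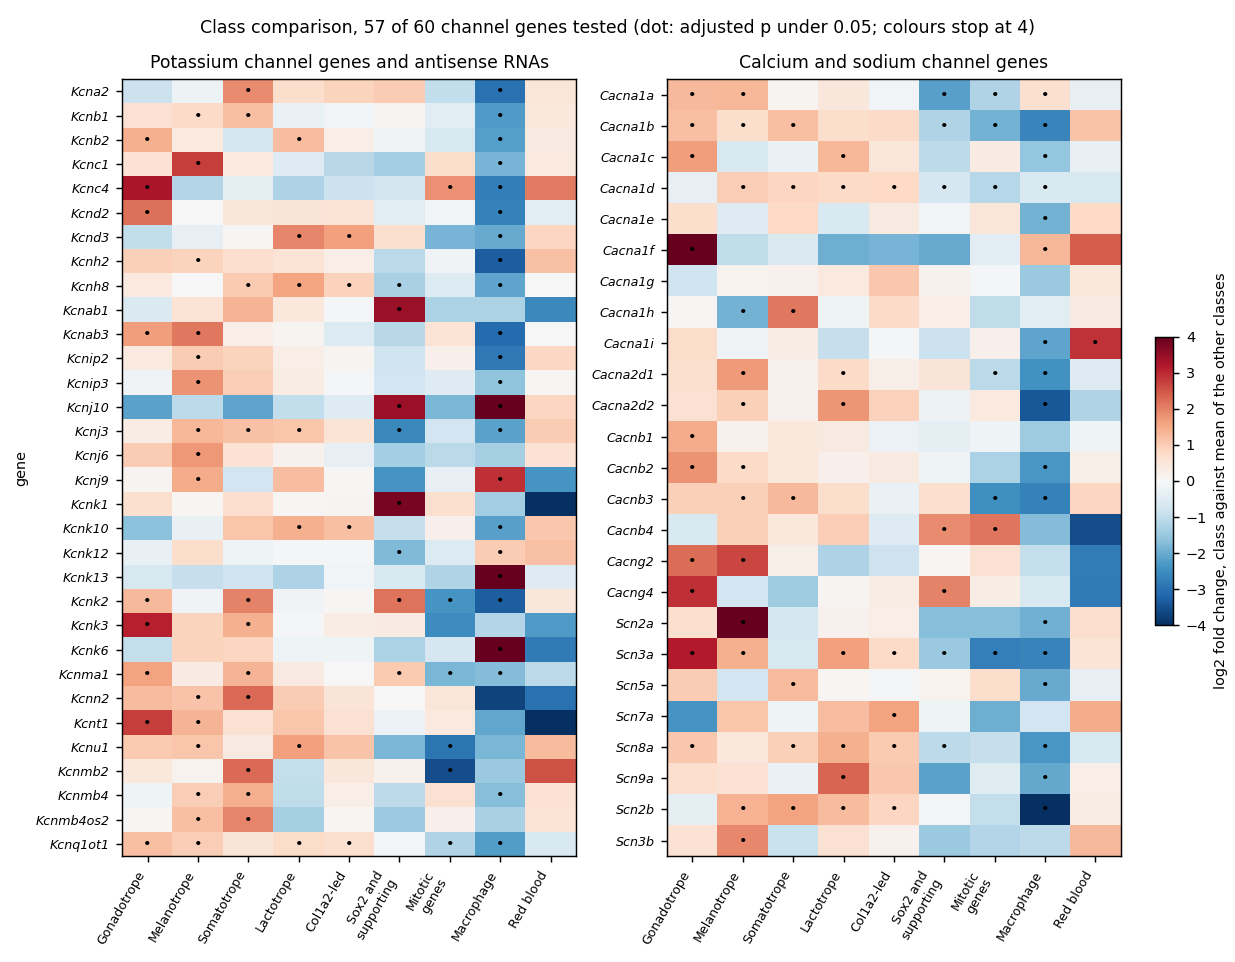
Log2 fold change of 57 of the 60 channel genes tested (rows, ordered by family) in each of 9 classes against the mean of the other classes. Red is higher, blue lower, colours stop at 4 in either direction, and a dot marks an adjusted p under 0.05. The melanotrope column has 27 dots in red and the macrophage column 33 in blue, and Scn2a in melanotropes (4.22) is among the deepest red cells. Some of the dots in red mark calls whose direction the count filter fixed.

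Among the voltage-gated potassium channels, 11 of 32 genes were tested, and 5 were higher in melanotropes (13.3% of all genes), 4 in gonadotropes (8.95%), 4 in somatotropes (10.2%), 4 in lactotropes (9.04%) and 3 in the Col1a2-led gate (5.63%). In macrophages 10 of the 11 were lower (21.8% of all genes), and 2 were lower in the Sox2 class (3.91%) and 2 higher in the class gated on mitotic genes (24.1%). Kcnc1, a fast delayed rectifier of the kind that lets neurons fire at high rates, was highest in melanotropes. Its level over the 10 melanotrope libraries ran from 0.140 to 1.37 with a median of 1.02, and the lowest 2 values were those of the 10X Genomics libraries. No library of another class exceeded 0.787, and 6 of the 10 melanotrope libraries lay above that value. The log2 fold change was 2.78 ± 0.30 (SE, adjusted p = 4.66e-14). Kcnc4, of the same fast family as Kcnc1, was higher in gonadotropes (3.26 ± 0.46). It had UMIs in 8 of 9 gonadotrope libraries, with a median of 0.464, but only 23 UMIs in all. It passed the count filter through those libraries alone, and DESeq2 did not call it. Kcnd2, which gives the A-type current that delays spikes, was also higher in gonadotropes (2.20 ± 0.39), with UMIs in 8 of 9 libraries and a median of 0.529.

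In lactotropes Kcnd3, the other Kcnd channel gene tested, had UMIs in all 9 lactotrope libraries, from 0.128 to 0.517, and a log2 fold change of 1.94 ± 0.41. Kcnh8, of the ether-a-go-go family, ran from 0.445 to 4.72 with a median of 2.46 in lactotropes (1.58 ± 0.21) and from 0.438 to 4.03 in somatotropes (1.05 ± 0.22), a call lost with a gate of 3 UMIs. The ranges of these classes overlapped almost whole. Kcnh8 was also higher in the Col1a2-led gate (0.91 ± 0.21), a call lost with 2 different markers and in the 10X Genomics libraries alone.

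The accessory subunits of these channels were sparser. Of 9 genes 4 were tested and 3 were higher in melanotropes (13.3% of all genes), among them Kcnab3 and Kcnip2 through the filter alone. In gonadotropes 1 was higher (8.95% of all genes) and in the Sox2 class 1 (17.7%), and in macrophages 3 were lower (21.8%). Kcnab3, a cytoplasmic beta subunit, had UMIs in all 10 melanotrope libraries, from 0.0950 to 0.531 (2.11 ± 0.36). Kcnab1, a related beta subunit, was higher in the Sox2 class only among the 9 tested contrasts, with a median of 0.563 over 10 libraries and 1 library at 0 (3.44 ± 0.46).

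Of the inward rectifiers 4 of 7 genes were tested. Kcnj3, Kcnj6 and Kcnj9 encode the G protein-gated channels through which dopamine and somatostatin hyperpolarise cells. Kcnj3 and Kcnj6 were higher in melanotropes, with log2 fold changes of 1.33 ± 0.30 and 1.75 ± 0.30. Kcnj9 (1.47 ± 0.46) failed the count filter without the melanotrope libraries, so its direction there was fixed, and DESeq2 did not call it. Kcnj3 was also higher in somatotropes (1.17 ± 0.35) and lactotropes (1.12 ± 0.35). The somatotrope call was lost in the Drop-seq libraries alone, and the lactotrope call on each platform alone, under both stricter gates and without barcodes over 5000 UMIs. In macrophages Kcnj9 had 20 UMIs over 8 of 10 libraries (2.93 ± 0.50), and the filter fixed its direction there as well. Kcnj3 was lower in the Sox2 class (-2.58 ± 0.70), where only 2 UMIs were seen, a call lost with 2 different markers. Kcnj10, the rectifier with which glia take up potassium, was higher in macrophages, with UMIs in 10 of 10 libraries from 0.161 to 0.891 (4.36 ± 0.41), and in the Sox2 class, with UMIs in 6 of 10 libraries up to 1.61 (3.44 ± 0.46, not called by DESeq2). All other class libraries lay at or below 0.152 for Kcnj10. Kcnj8, a pore of the ATP-sensitive channel of vessel walls, had 109 UMIs and was not tested. It had 6 UMIs in the 31 barcodes gated as pericytes, or 3.64 per 10000 (95% exact Poisson interval 1.33 to 7.91), and 8 in the 42 endothelial barcodes, or 2.21 (0.952 to 4.35), against 0.0480 over all kept barcodes.

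The K2P genes, whose channels have tandem pore domains and leak potassium at rest, had 7 of 8 genes tested. Of these, 3 were higher and 2 lower in macrophages (29% and 21.8% of all genes), and of the 3 higher ones Kcnk13 and Kcnk6 passed the count filter only through the macrophage libraries. In the Sox2 class 2 were higher and 1 lower (17.7% and 3.91%). In somatotropes 2 were higher (10.2% of all genes), in gonadotropes 2 (8.95%), among them Kcnk3 through the filter alone, in lactotropes 1 (9.04%) and in the Col1a2-led gate 1 (5.63%), and 1 was lower in the class gated on mitotic genes (12%). Nothing is read from these counts over 7 genes. Kcnk13, a leak channel known from microglia, had 65 of its 68 UMIs in macrophages. Its macrophage levels ran from 0 to 1.21 with a median of 0.435, and the highest value in any other class library was 0.0140. Its fold change is not given, since the filter fixed its direction. Kcnk6 had macrophage levels from 0.158 to 1.16 over 10 libraries, and its fold change is left out for the same reason. Kcnk1, a weakly rectifying leak channel, was highest in the Sox2 class, from 0.212 to 5.02 with a median of 1.84 and a log2 fold change of 3.80 ± 0.31 (adjusted p = 7.91e-21). The highest library of any other class was at 0.939, and 7 of the 10 libraries of the Sox2 class lay above it.

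Kcnk2, the leak channel opened by stretch and lipids, had 2671 UMIs. In somatotropes it was 7.41 and 8.55 in the female and male 10X Genomics libraries and 0.580 to 2.76 in the 8 Drop-seq libraries. The platforms did not overlap, and they differed in the same direction in melanotropes and lactotropes. In somatotropes the log2 fold change was 1.97 ± 0.25, a call that held on each platform alone. The Sox2 class was also higher (2.19 ± 0.27), from 1.06 to 4.71. Gonadotropes were higher by 1.29 ± 0.32, a call that was lost in the Drop-seq libraries alone and without barcodes over 5000 UMIs. Kcnk2 was lower in macrophages (-3.30 ± 0.53), where 7 UMIs were seen. Kcnk3, an acid-sensitive leak channel, was higher in gonadotropes through the filter alone (3.11 ± 0.56), from 15 UMIs in 6 of 9 libraries. DESeq2 did not call it.

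**Figure D3:**
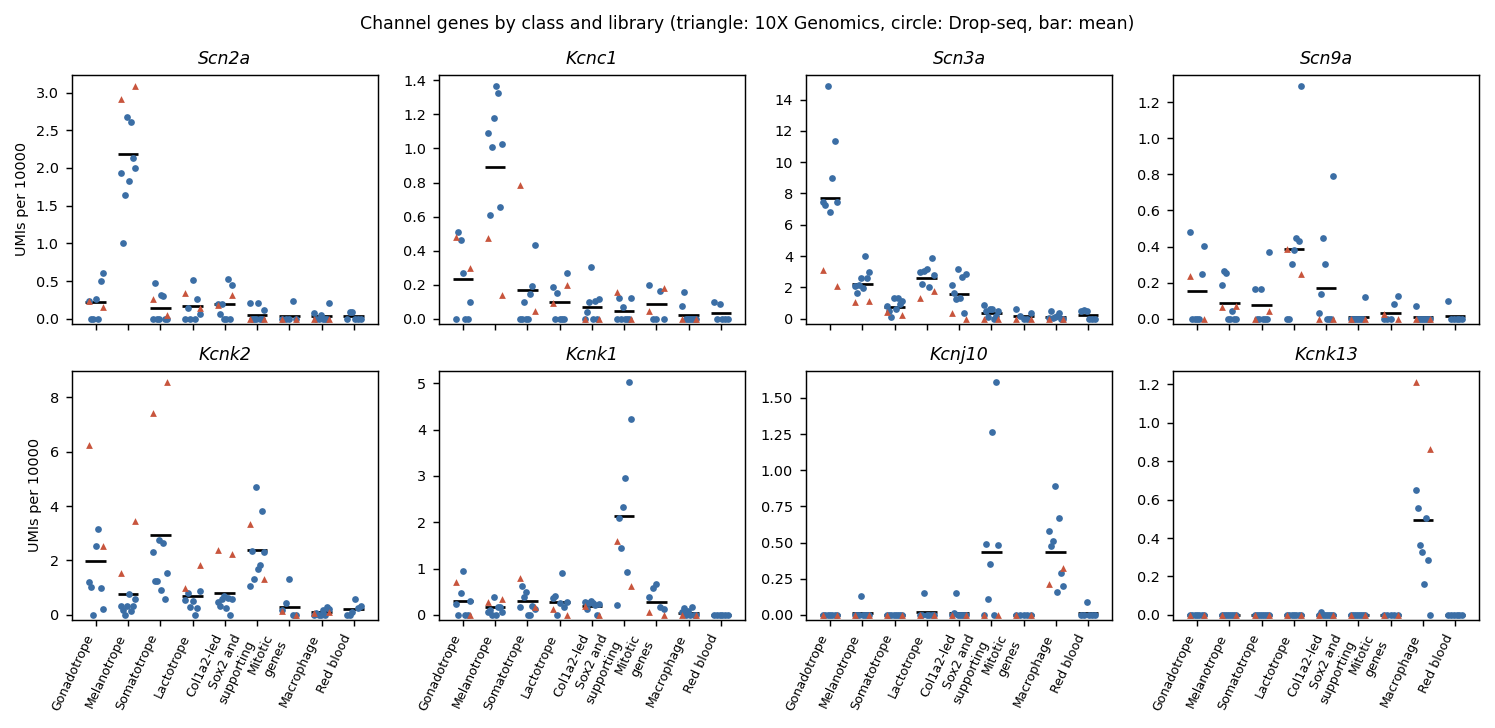
Levels of 8 channel genes (UMIs per 10000, hormone genes removed) in 9 classes. Each point is 1 library (circle Drop-seq, triangle 10X Genomics) and the bar is the mean over libraries. Scn2a has its 10 melanotrope libraries (1.01 to 3.08) above all others, Kcnk13 is near 0 outside macrophages, and Kcnk2 in somatotropes is higher in both 10X Genomics libraries (7.41 and 8.55) than in any Drop-seq library.

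Of the calcium- and sodium-activated potassium channels 4 of 8 genes were tested, and 2 were higher in somatotropes (10.2% of all genes), 3 in melanotropes (13.3%), 2 in gonadotropes (8.95%), 1 in lactotropes (9.04%) and 1 in the Sox2 class (17.7%), while 2 were lower in the mitotic class (12%) and 1 in macrophages (21.8%). Kcnn2, a small-conductance channel that gives the pause after a spike, had UMIs in 9 of 10 somatotrope libraries with a median of 0.455 (2.26 ± 0.39). It was also higher in melanotropes (1.13 ± 0.38), a call lost on each platform alone and without barcodes over 5000 UMIs. Kcnmb2 and Kcnmb4 are beta subunits of BK, the large-conductance channel whose pore is Kcnma1. Kcnmb2 had UMIs in 8 of 10 somatotrope libraries, with a median of 0.404 and a highest value of 0.974 (2.26 ± 0.38). Kcnmb4 had a median of 0.577 in somatotropes (1.47 ± 0.35), a call lost in the Drop-seq libraries alone, and was also higher in melanotropes (0.99 ± 0.32), a call lost there and without barcodes over 5000 UMIs. Kcnma1 itself was higher in gonadotropes (1.62 ± 0.32), somatotropes (1.35 ± 0.27) and the Sox2 class (1.04 ± 0.31) and lower in macrophages (-1.75 ± 0.48). Kcnt1, a sodium-activated potassium channel, was highest in gonadotropes, from 0 to 2.22 with a median of 1.01 (2.76 ± 0.41), and was also called in melanotropes (1.35 ± 0.38). Kcnu1, best known from sperm, was higher in lactotropes (1.65 ± 0.43) from 25 UMIs in 6 of 9 libraries, a call lost in the Drop-seq libraries alone, and in melanotropes (1.12 ± 0.38). The melanotrope call was lost without barcodes over 5000 UMIs and in the 10X Genomics libraries alone. DESeq2 made neither the lactotrope nor the melanotrope call.

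Of the 4 antisense RNAs, 2 were tested. Kcnmb4os2, antisense to Kcnmb4, was higher in somatotropes (1.96 ± 0.34) and melanotropes (1.19 ± 0.33), the same classes as Kcnmb4. The Drop-seq counts use strand per the study's methods. For the 10X Genomics counts the strand setting is not given in the sources used here. Kcnq1ot1 ran from 12.9 to 43.7 in gonadotropes and from 0.632 to 3.17 in macrophages, with log2 fold changes of 1.20 ± 0.21 and -2.22 ± 0.27. It was also higher in melanotropes (0.99 ± 0.19), lactotropes (0.75 ± 0.21) and the Col1a2-led gate (0.64 ± 0.20). In the mitotic class it was lower (-1.22 ± 0.29). The call in the Col1a2-led gate was lost under both stricter gates and in the 10X Genomics libraries alone.

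Of the pore genes of the voltage-gated calcium channels 9 of 10 were tested. Cacna1d, an L-type pore that opens at low voltage and carries pacemaker current, was higher in somatotropes (0.85 ± 0.19), lactotropes (0.76 ± 0.20) and melanotropes (0.99 ± 0.17), with medians of 2.40, 1.67 and 2.20 per 10000. The somatotrope call was lost with a gate of 3 UMIs and the lactotrope call in the Drop-seq libraries alone. Cacna1d was also higher in the Col1a2-led gate (0.80 ± 0.19), a call lost under both stricter gates and in the 10X Genomics libraries alone. Cacna1c, the L-type pore of heart and smooth muscle, was higher in gonadotropes (1.66 ± 0.39) and lactotropes (1.34 ± 0.33), the latter lost in the Drop-seq libraries alone. Cacna1f, the L-type pore of photoreceptors, was the member with the largest fold change in gonadotropes. It was detected in 8 of 9 gonadotrope libraries with a median of 0.482 and a highest level of 1.39, and no library of another class passed 0.323. Its log2 fold change was 4.08 ± 0.44, but it rested on 22 UMIs, it passed the count filter through the gonadotrope libraries alone, and DESeq2 did not call it. Cacna1a, the P/Q-type pore of synapses, was higher in gonadotropes (1.31 ± 0.27) and melanotropes (1.33 ± 0.21) and lower in the Sox2 class (-2.16 ± 0.40).

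Of the T-type pores, which open near rest, Cacna1h was higher in somatotropes (2.12 ± 0.39), though it passed the count filter through their libraries alone. Its level there ran from 0 to 0.657 with a median of 0.308. In melanotropes it was lower (-1.91 ± 0.58), where 3 UMIs were seen. DESeq2 called neither, the melanotrope call was lost without barcodes over 5000 UMIs, and in the 10X Genomics libraries alone the direction turned (0.94). Cacna1i was the single member called in red blood cells (2.88 ± 0.85), through the filter alone. It had 5 UMIs in 3 of 6 libraries and was not called with DESeq2. In this class 2.83% of all genes were higher and 0.159% lower.

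Of the accessory calcium channel subunits, Cacna2d1, an alpha2delta subunit that carries pores to the membrane and binds gabapentin, was highest in melanotropes, from 1.37 to 6.05 with a median of 3.23 (1.71 ± 0.17, adjusted p = 3.72e-16). It was also higher in lactotropes (0.76 ± 0.20). Cacna2d2, its relative, was higher in lactotropes (1.77 ± 0.35), where all 9 libraries had UMIs, from 0.185 to 1.28. It was nearly absent in macrophages, with 1 UMI over 10 libraries (-3.38 ± 0.81). Cacnb4, a cytoplasmic beta subunit, was higher in the Sox2 class (1.89 ± 0.49). Cacng2 and Cacng4 are named for calcium channels but are known to guide AMPA glutamate receptors. Cacng2 was higher in melanotropes (2.66 ± 0.40) and in gonadotropes (2.23 ± 0.59), and Cacng4 in gonadotropes (2.91 ± 0.56) and the Sox2 class (2.0 ± 0.55), from 16 and 14 UMIs. DESeq2 called only the melanotrope value of these 4.

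Among the sodium channels, 3 neighbouring pore genes were each highest in a different endocrine class. Scn3a, Scn2a, Scn1a, Scn9a and Scn7a lie in this order on chromosome 2 (GRCm38 coordinates, GENCODE vM21 annotation) at 65457118-65567627, 65620771-65767447, 66270778-66440840, 66480080-66634962 and 66673425-66784914. Genes of other families between them were not looked for. Scn2a is on the plus strand and the other 4 on the minus strand, and the gaps between them are 53144, 503331, 39240 and 38463 bases. Scn1a had 138 UMIs and was not tested.

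Scn2a, a pore of neuronal axons, was highest in melanotropes. Every melanotrope library lay above every library of the other 8 classes, the only such case among the 108 genes and 9 classes. Its 10 melanotrope libraries ran from 1.01 to 3.08 with a median of 2.06, and the 10X Genomics libraries (2.92 and 3.08) were the highest. The highest value elsewhere was 0.606, in a gonadotrope library. The log2 fold change was 4.22 ± 0.24 (adjusted p = 1.04e-33), and the call held in the 21 alternatives and single-library omissions run. Scn3a, a pore of embryonic neurons, was highest in gonadotropes, at 7.72 ± 3.87 (SD, n = 9), from 2.09 to 14.9. Without the 10X Genomics libraries, which were the lowest (3.11 and 2.09), the gonadotrope values began at 6.84, and the highest value of another class was 3.99 in a melanotrope library. The log2 fold change was 3.18 ± 0.21 (adjusted p = 2.22e-27). Lactotropes (1.63 ± 0.22) and melanotropes (1.42 ± 0.20) were also higher for Scn3a, whereas somatotropes gave -0.63 ± 0.29 and were not called. The Col1a2-led gate was higher for Scn3a as well (0.757 ± 0.225), a call lost under both stricter gates and in the 10X Genomics libraries alone.

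Scn9a, a pore of pain-sensing neurons, was highest in lactotropes, with UMIs in 7 of 9 libraries, a median of 0.383 and a highest level of 1.29 (2.34 ± 0.40). Scn7a, a sodium-level sensor of glia rather than a spike channel, was called only in the Col1a2-led gate among the tested classes (1.62 ± 0.52), a call lost with DESeq2 and in the Drop-seq libraries alone. Scn7a passed the count filter through the libraries of that gate alone. Its highest level by far was in barcodes gated as pituicytes, the glia of the posterior lobe, which were too few to test. Marker UMIs of that gate were led by Col25a1 (63.5%). The 31 pituicyte-gated barcodes held 54 Scn7a UMIs, or 19.0 per 10000 (95% exact Poisson interval 14.3 to 24.8, counting error only), against 0.108 over all kept barcodes. In the 8 libraries with such barcodes the level was 0 in the mt/hGRF library, from 796 UMIs, and 4.35 to 56.3 in the other 7. The pituicyte barcodes also held 17 UMIs of Cacnb4 (5.98 per 10000, 3.48 to 9.57) and 9 of Cacna2d2 (3.17, 1.45 to 6.01).

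Scn8a, the pore at the site of spike initiation in mature neurons, was higher in lactotropes (1.41 ± 0.24), gonadotropes (1.09 ± 0.30) and somatotropes (0.96 ± 0.25). The gonadotrope and somatotrope calls were lost in the Drop-seq libraries alone, the former also with TMM over all genes and the latter with a gate of 3 UMIs. The beta subunit Scn2b, an adhesion protein that binds the pore, was higher in somatotropes (1.59 ± 0.27), melanotropes (1.38 ± 0.25) and lactotropes (1.28 ± 0.28) and had 1 UMI over the 10 macrophage libraries (-4.02 ± 0.63). Scn2b was also higher in the Col1a2-led gate (0.86 ± 0.27), a call lost under both stricter gates and on each platform alone.

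The RefSeq promoter windows of 3 of these neighbours are shown because the genes differ in the cells that hold them while sharing a locus. Each window runs from 250 bases before to 50 after an annotated start on GRCm38.p6. The capitals mark TAATCC, a sequence bound by Pitx-type homeodomain proteins, searched on both strands. The Scn2a window is at chr2:65620519-65620818 on the plus strand (33% GC), the Scn9a window at chr2:66634913-66635212 on the minus strand (57.3% GC) and the Scn7a window at chr2:66784861-66785160 on the minus strand (54% GC).
Scn2a: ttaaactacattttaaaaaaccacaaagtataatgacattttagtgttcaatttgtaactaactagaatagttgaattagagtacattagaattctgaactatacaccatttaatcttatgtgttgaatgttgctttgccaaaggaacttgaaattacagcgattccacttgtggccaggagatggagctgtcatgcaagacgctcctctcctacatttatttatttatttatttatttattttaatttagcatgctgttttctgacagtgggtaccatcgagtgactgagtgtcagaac
Scn9a: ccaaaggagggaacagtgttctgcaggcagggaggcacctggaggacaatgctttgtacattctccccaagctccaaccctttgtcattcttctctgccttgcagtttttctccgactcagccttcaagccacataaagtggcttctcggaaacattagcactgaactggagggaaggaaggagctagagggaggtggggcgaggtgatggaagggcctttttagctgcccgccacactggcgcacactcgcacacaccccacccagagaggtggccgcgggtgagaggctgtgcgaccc
Scn7a: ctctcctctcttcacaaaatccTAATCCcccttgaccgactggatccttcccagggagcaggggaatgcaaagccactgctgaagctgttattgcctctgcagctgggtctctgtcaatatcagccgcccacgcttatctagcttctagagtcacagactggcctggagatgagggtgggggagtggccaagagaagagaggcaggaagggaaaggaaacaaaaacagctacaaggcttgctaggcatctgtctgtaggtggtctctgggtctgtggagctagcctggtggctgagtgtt

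Of these windows only that of Scn7a held TAATCC, which occurs in 7.06% of the 32851 RefSeq windows and in 6 of 110 windows of the channel genes (5.45%). TATAAA, the TATA box, occurs in 13.6% of all windows and in 4 of the 110 (3.64%), among them the other window of Scn2a, which is not shown. The channel windows, which matched 79 genes, had a median GC content of 60% against 52.7% for all. Scn3a is named only.

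When the 4 endocrine classes were set against one another alone, 35 members and 8548 genes could be tested. Whether a member passed the count filter of this fit only through the class where it was high was not checked. The calls and fold changes of this fit are therefore descriptions. In melanotropes 8 members were higher and 6 lower (6.26% and 3.73% of all genes), led by Scn2a (3.70 ± 0.23), Kcnc1 (2.26 ± 0.31) and Kcnip3 (1.27 ± 0.29), a calcium-binding partner of A-type channels. In gonadotropes 6 were higher and 2 lower (4.43% and 1.78%), led by Scn3a (2.14 ± 0.16) and Kcnd2 (1.69 ± 0.40). In lactotropes 4 were higher and 5 lower (3.09% and 2.74%), led by Scn9a (1.84 ± 0.41), with Kcnmb4 (-1.78 ± 0.47) and Kcnk2 (-1.17 ± 0.26) among the lower. In somatotropes 6 were higher and 8 lower (5% and 3.9%), led by Kcnmb4os2 (1.87 ± 0.36), Kcna2 (1.82 ± 0.35) and Kcnk2 (1.58 ± 0.21), with Scn3a lowest (-2.44 ± 0.20). Kcna2 encodes a delayed rectifier of the Shaker type.

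In the class gated on mitotic genes 3 members were higher and 11 lower, with 24.1% and 12% of all genes. Among the higher members were Cacnb4 (2.15 ± 0.54) and Kcnc4 (1.81 ± 0.52). Both calls were lost in the Drop-seq libraries alone and without barcodes over 5000 UMIs, where the direction of Kcnc4 turned, and Kcnc4 was also lost with DESeq2 and without TMM scaling. The median of Malat1, Meg3 and Neat1 together in this class was 116 per 10000, the lowest of the 9 classes, and its part in the lower channel levels was not tested. Kcnmb2 and Kcnu1 had 0 UMIs there in 1190379, which allows up to 0.0252 per 10000. They were at least 4.77-fold and 4.03-fold lower than the mean of the other class means, with 3 UMIs over the class as the floor. With the floor set over the Drop-seq libraries alone (0.0886 per 10000) these bounds are 1.36-fold and 1.15-fold. In the Drop-seq libraries alone 1 member was higher and 3 were lower, and the same counts were found without barcodes over 5000 UMIs.

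In the Sox2 class 8 members were higher and 9 lower (17.7% and 3.91% of all genes), and in the Col1a2-led gate 10 were higher and 0 lower (5.63% and 1.16%). The members of the Col1a2-led gate, led by Kcnd3 (1.65 ± 0.41), Scn7a, Kcnk10 (1.20 ± 0.37), a stretch-activated leak channel, and Scn8a (1.06 ± 0.24), had Gh and Prl beside them at the levels given above. With 2 different collagen or stromal markers required per barcode, 2 members were higher, and Kcnd3, Kcnk10 and Scn8a were not called.

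Genes that work beside the channels were followed in a list of 30 (leak sodium channel, calcium stores, pumps, calmodulins and exocytosis proteins), of which 22 were tested. In melanotropes 12 were higher and 4 lower (13.3% and 7.94% of all genes), in somatotropes 8 and 3 (10.2% and 4.61%), in gonadotropes 6 and 3 (8.95% and 3.04%) and in lactotropes 5 and 4 (9.04% and 5.01%). In macrophages 5 were higher and 13 lower (29% and 21.8%), in the Sox2 class 8 and 5 (17.7% and 3.91%), in the mitotic class 4 and 3 (24.1% and 12%), in the Col1a2-led gate 3 and 1 (5.63% and 1.16%) and in red blood cells 0 and 0 (2.83% and 0.159%). The list's median log2 fold change was 0.63 in melanotropes and -1.66 in macrophages. Snap25, a SNARE protein of exocytosis, was higher in all 4 endocrine classes, from 1.12 ± 0.19 in somatotropes to 1.65 ± 0.18 in melanotropes, and lower in macrophages (-3.24 ± 0.33). Nalcn, the sodium leak channel, was higher in melanotropes (1.40 ± 0.24) and somatotropes (1.04 ± 0.28). Unc80, a subunit of the Nalcn complex, was higher in the 4 endocrine classes, from 0.74 ± 0.20 in somatotropes to 1.33 ± 0.18 in melanotropes. All 3 genes were also higher in the Col1a2-led gate (Snap25 0.81 ± 0.20, Nalcn 0.95 ± 0.27 and Unc80 0.68 ± 0.20). Of the calmodulins, all 3 genes were higher in macrophages.

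Whether channel genes differ between the sexes was asked in the 6 WT 8-week libraries, in the 5 classes with enough barcodes in all of them. Over 96 pairs of a member and a class, 0 passed an adjusted p of 0.05 with edgeR and 3 (3.12%) had an unadjusted p under 0.05, against 2.84% of the pairs of all genes, while DESeq2 gave 0 and 1. The fit called 34 of 30542 pairs over all genes. The shares of genes higher and lower in males were 0.119% and 0.106% in somatotropes, 0.0662% and 0.0221% in melanotropes, 0.0642% and 0.0214% in the Sox2 class, 0.0443% and 0.0443% in the Col1a2-led gate, and 0% and 0.0212% in macrophages. Scn3b, a sodium channel beta subunit, came closest in melanotropes. Its level was 0.539, 0.304 and 0.531 in the female libraries and 0.0701, 0.164 and 0.193 in the male ones, without overlap. The log2 fold change, male minus female, was -2.03 ± 0.71, with an adjusted p of 0.9999, or 0.481 with libraries paired by batch tag. The median SE of the members was 0.57 in melanotropes and 0.59 in somatotropes, so a change of less than 2-fold in a single gene was within about 2 SE.

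Lactotropes and gonadotropes had at least 20 barcodes in only 5 of the 6 libraries and were fitted after the data were seen. Again 0 of 55 pairs passed, and 5 (9.09%) had an unadjusted p under 0.05, against 6.3% of the pairs of all genes. In lactotropes 1.18% of all genes were higher and 0.188% lower in males, and in gonadotropes 0.202% and 0.228%. Kcnk2 was the member with the smallest p in both, and in opposite directions. In gonadotropes it was 6.23, 3.17 and 0.988 in females and 2.54 and 0.202 in males (-1.67 ± 0.54, adjusted p = 0.233 in edgeR). In lactotropes it was 0.999, 0 and 0.259 in females and 1.83 and 0.882 in males (1.24 ± 0.46, adjusted p = 0.264 in edgeR). The sexes overlapped in both classes over all libraries. Within both pairs of libraries that share a batch tag, the male value was lower in gonadotropes (2.54 against 6.23, and 0.202 against 0.988) and higher in lactotropes (1.83 against 0.999, and 0.882 against 0.259). No fit with the tag as a block was run for these classes, and the difference between the classes was not tested.

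Lactation was compared within the Drop-seq libraries, lactating minus virgin, at 13 weeks. With 1 virgin library, its spread is taken to be that of the other Drop-seq groups. Of 187 pairs 0 passed, 3 (1.6%) had an unadjusted p under 0.05, against 2.81% of the pairs of all genes, and DESeq2 gave 0 and 0. All genes together gave 16 calls in 55727 pairs. The share of genes lower was 0.0135% in somatotropes, 0.0145% in lactotropes, 0.0195% in gonadotropes, 0.00996% in melanotropes, 0.0276% in the Sox2 class, 0.0472% in the Col1a2-led gate, 0.0414% in macrophages and 0% in red blood cells. The share higher was 0.0276% in the Sox2 class and 0% in the others. In melanotropes Cacna2d1 was 2.93 and 2.99 in the lactating libraries and 3.47 in the virgin one. Scn2a was 1.93 and 1.01 in the lactating libraries and 2.68 in the virgin one. Scn9a in lactotropes was listed at 0 in both lactating libraries, from 127049 UMIs, which allows up to 0.236 per 10000, and at 0.383 in the virgin library from 3 UMIs (95% exact Poisson interval 0.0790 to 1.12). The lactating libraries together allow up to 0.29 by the same interval, which overlaps that of the virgin library.

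The mt/hGRF library was compared with the 2 WT female Drop-seq libraries of the same age in the same fit. Of 185 pairs 0 passed and 22 (11.9%) had an unadjusted p under 0.05, against 6% of the pairs of all genes, while DESeq2 gave 0 and 3. Over all genes 44 of 54554 pairs were called, and the shares of genes higher and lower were 0.108% and 0.054% in somatotropes, 0.0434% and 0.0145% in lactotropes, 0.0552% and 0.0276% in the Sox2 class, 0.0472% and 0.142% in the Col1a2-led gate, 0.0276% and 0% in macrophages, and 0% in gonadotropes and melanotropes. Cacna1c in lactotropes, the member with the smallest p in that class, was 0.152 in the mt/hGRF library, from 1 UMI, against 1.12 and 1.90 in the WT female libraries. Values from 0 to 0.927 were seen in the Drop-seq libraries of other groups, so the mt/hGRF value lay within their range. The log2 fold change was -3.24 ± 1.26 (adjusted p = 0.733). With a single transgenic library no replicate check exists for this value.

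**Figure D4:**
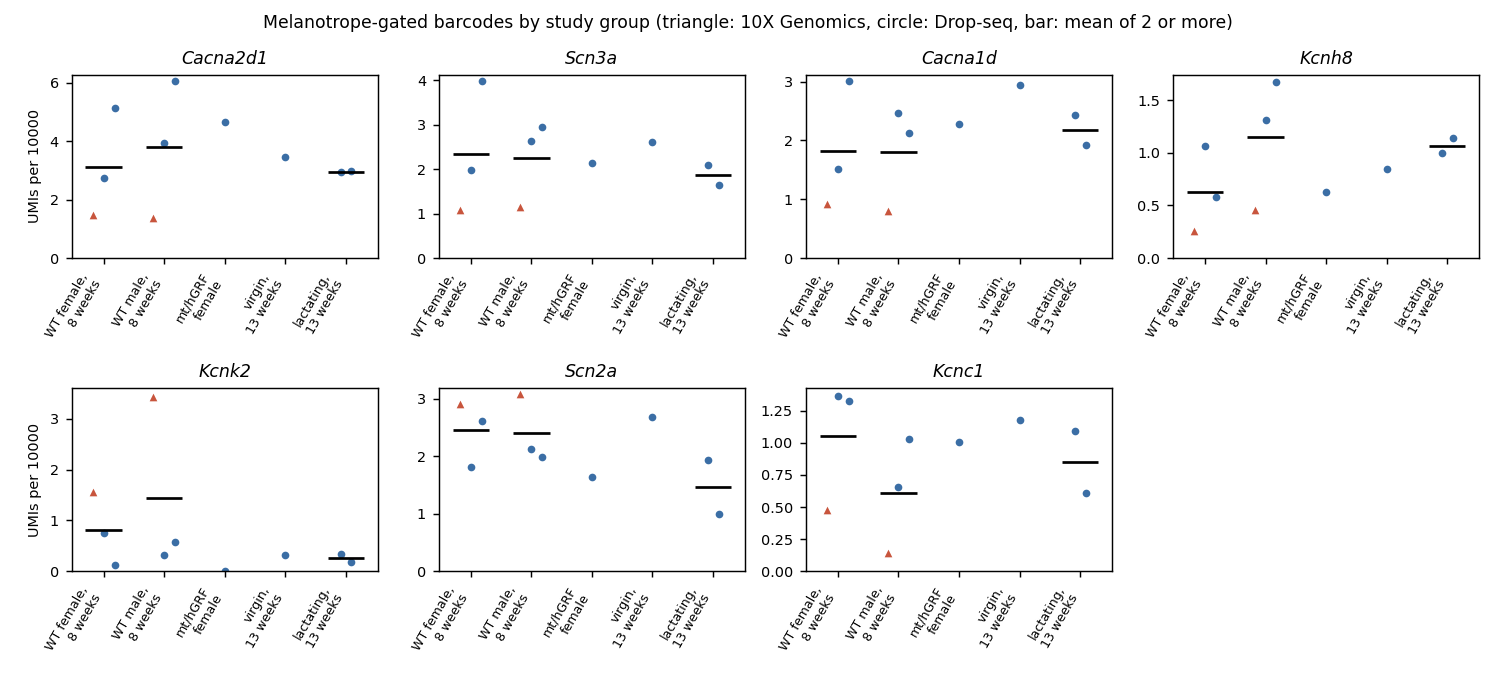
Levels of 7 channel genes in melanotrope-gated barcodes (UMIs per 10000, hormone genes removed) by study group. Each point is 1 library (circle Drop-seq, triangle 10X Genomics) and the bar is the mean of groups with 2 or more libraries. Scn2a lies between 1.01 and 3.08 in all 10 libraries, and the 10X Genomics libraries are the lowest for Cacna2d1, Scn3a and Cacna1d and the highest for Scn2a and Kcnk2.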

How the data were processed

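The authors deposited, for each of the 10 libraries, raw counts of UMIs per gene and cell barcode. For Drop-seq they mapped reads to mm10 with Gencode vM13 annotation and counted unique exonic reads on the annotated strand, merging UMIs. The submitters' processing notes name STAR 2.5.2a and Cell Ranger. The 10X Genomics tables hold 100000 barcodes each, empty droplets included, and their annotation version is not given in the sources used here. Barcodes were kept with at least 300 UMIs and 100 to 4000 genes (Drop-seq) or 200 to 3000 genes (10X Genomics), and under 10% mitochondrial UMIs, which left 978 to 5256 barcodes and 960289 to 5080590 UMIs per library. No doublet caller was run, and counts were not corrected for free RNA. The red blood, NK, low-quality and doublet clusters that the study removed from its Drop-seq data were not taken out.

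A barcode entered a class with at least 2 UMIs (20 for red blood cells) of its marker list and at least 2 times those of every other list. Classes are therefore rebuilt here, and 14080 of 23432 barcodes had none. Counts were summed per library and class, without the 7 hormone genes, and sums over at least 20 barcodes were tested. Tests were edgeR 4.0.16 quasi-likelihood fits (R 4.3.3, limma 3.58.1) with Benjamini-Hochberg adjustment over all genes tested, filterByExpr with a minimum count of 2 and a minimum total of 15, and TMM factors from the 2000 genes with the highest mean count. The last 2 settings were chosen after the counts were seen. The scripts were tested on simulated data. DESeq2 1.42.0 was an alternative. Errors of log2 fold changes are SE from the fit. Exact Poisson intervals and floors (3 counts) cover counting error only. UMIs are counted at the 3′ end and not per length, so levels are not compared between genes.

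The members, gene lists and gates were chosen with earlier results of these data known. In each class the rule named up to 5 members with the largest positive and up to 2 with the largest negative log2 fold change past an adjusted p of 0.05, together with the 10 members with the most UMIs and a short list of well-studied channels. The members named beyond this rule were chosen after their values were seen. Female and male WT 8-week libraries share batch tags in their labels (10x, 0324, 0511). The deviations of same-tag libraries from the mean of their sex correlated at 0.349 to 0.896 over 2000 genes in the 5 classes tested. The 10X Genomics pair gave 0.727 to 0.896 of this range. Female and male Drop-seq libraries of different tags correlated at 0.106 to 0.454, which overlaps the same-tag values over all classes, though within each class the same-tag values were higher. The tags were taken to pair the libraries. A fit with the tag as a block was run beside the planned one, which holds a platform term. The alternatives changed the tool, the scaling, the filter, the gate, the hormone genes, the platform and the libraries. Coordinates are from GENCODE vM21 (GRCm38), and promoter sequences from RefSeq (GRCm38.p6). Python 3.11.15 with numpy 2.4.6, pandas 2.3.3 and scipy 1.17.1 was used for the rest. Values of 3 members are not reported here, while the counts include them.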

Additional observations from a re-analysis of the deposited data

Results flagged for a closer look

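In WT female 8-week replicate 3 the summed level of the channel genes stood apart from the other libraries, at 62.48 UMIs per 10000 in lactotropes and 90.195 in gonadotropes, where the other 8 libraries ended at 46.6 and 60.3. Kcnq1ot1 in the gonadotropes of the same library was 43.738. In each case the gap to the nearest library was over the critical share of the range for 9 libraries (0.503, 0.667 and 0.648 of it). Chance flags about 1 in 20 groups, and 28 values were looked at. Malat1, Meg3 and Neat1 together were 1076 per 10000 in the lactotropes and 818 in the gonadotropes of that library, below the class medians of 1584 and 1198, and their part in the result was not tested.

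For 3 members all male libraries lay above all female ones in one class and below them in the class gated on mitotic genes, over libraries with at least 20 barcodes. They were picked for this pattern, and the share of all genes that show it was not counted. Cacna2d2 was at least 0.351 in males and at most 0.304 in females in melanotropes, and 0.0229 and 0 in males against 0.121 and 0.161 in females in the mitotic class. Kcnn2 in lactotropes was at least 0.396 in males and at most 0.277 in females, and Kcnab3 in somatotropes was at least 0.044 in males and 0 in females. In the mitotic class these values rest on 0 to 5 UMIs per library. The somatotrope value of 0.044 is that of a single Kcnab3 UMI among 228111 in the male 10X Genomics library. The difference between the classes was not tested.

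In gates too small to be compared, Scn7a had 54 UMIs in pituicytes, Cacna2d1 had 95 in the 156 corticotrope-gated barcodes (0.933 per 10000, 95% exact Poisson interval 0.755 to 1.14) and 8 in endothelial barcodes, and Kcnj8 had 6 in pericytes.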

How the results depend on the processing

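Of the counts of members called, 378 values under the alternatives stayed on the same side or within 1.5 times, and 45 did not. With a gate of 3 UMIs, 12 members were higher in somatotropes, 1 was lower in gonadotropes and 4 were higher in the Col1a2-led gate. With DESeq2, 1 was lower in lactotropes, 13 were higher in gonadotropes, 0 were lower in melanotropes, 4 were higher in macrophages, and 0 were higher and 2 lower in red blood cells. Without barcodes over 5000 UMIs, 2 were lower in lactotropes, 0 lower in melanotropes, 1 higher and 3 lower in the mitotic class, and 2 higher in red blood cells. With 2 different markers per barcode, 0 were lower in melanotropes, 4 lower in the Sox2 class and 2 higher in the Col1a2-led gate. In the 8-week WT libraries alone, 1 was lower in lactotropes, 0 lower in melanotropes, 5 lower in the Sox2 class and 6 higher in the Col1a2-led gate. In the 10X Genomics libraries alone, 10 were higher in gonadotropes, 0 lower in melanotropes, 2 higher and 1 lower in the Sox2 class, 0 higher in the Col1a2-led gate, and 3 higher and 8 lower in macrophages. In the Drop-seq libraries alone, 1 was higher and 3 lower in the mitotic class, and 2 were higher in red blood cells. Without the filter on low counts, 7 were higher in the mitotic class and 3 in red blood cells. Without TMM, 21 were lower in the mitotic class and 5 in the Sox2 class. With TMM over all genes, 16 were higher in the Col1a2-led gate, and 0 were higher and 1 lower in red blood cells. The causes were not tested.

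Leaving out 1 library at a time gave 0 to 1 members lower in lactotropes (1 without WT 8-week female replicate 1 or lactating replicate 1) and 0 to 1 lower in melanotropes (0 without the mt/hGRF library). It gave 5 to 13 higher in the Col1a2-led gate (5 without WT 8-week female replicate 3) and 0 to 2 higher in red blood cells (0 without the mt/hGRF library or WT 8-week female replicate 2, 2 without lactating replicate 2). The counts higher ran from 15 to 22 in somatotropes, 15 to 17 in lactotropes, 17 to 21 in gonadotropes and 24 to 30 in melanotropes, and in macrophages 26 to 33 were lower.

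Directions turned for 8 of the 170 calls, with 0 of the turned values called. Kcnip3 in macrophages was 0.202 and Kcnh8 in the Sox2 class 0.242 in the 10X Genomics libraries alone. Cacna1h in melanotropes was 0.941 in the 10X Genomics libraries alone. Kcnc4 in the mitotic class was -0.126 without barcodes over 5000 UMIs and -0.416 in the Drop-seq libraries alone. In the Col1a2-led gate with 2 different markers, Scn8a was -0.001, Kcnh8 -0.444, Scn3a -0.618 and Cacna1d -0.298, and Kcnh8 was -0.013 in the 10X Genomics libraries alone. The lactation difference of Scn9a in lactotropes had no direction (0.0) with a gate of 3 UMIs and with 2 different markers.

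With the batch tag as replicate block in the sex comparison, 0 members passed, as without it, and 6 rather than 3 pairs had an unadjusted p under 0.05 (6.25%, against 3.59% of the pairs of all genes). The pairing changed no call of a member. Depth limits the rarer members: many calls rest on under 30 UMIs in a class, and the median SE of a member was 0.57 to 0.88 for sex, 0.90 to 1.74 for lactation and 1.15 to 1.51 for the transgene. In the class contrasts, 113 of 170 calls held in every single-library omission, and 78 held in those, with DESeq2, under both other scalings, both stricter gates and without barcodes over 5000 UMIs. Both counts include calls whose direction the filter fixed. A call that could not be tested in a setting was counted as not held there.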
